A study of Mus musculus with 6 samples.

Results

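The nebulin family groups proteins that bind actin through short nebulin repeats. Its 4 genes measured here were Neb, Nebl, Nrap and Lasp1, out of 18193 genes with a probe set assigned to a single gene on an Affymetrix mouse array. They were represented by 14 probe sets, each a group of short probes read out as a single log2 signal, of which 1 belonged to Neb (Entrez gene 17996), 3 to Nebl (74103), 1 to Nrap (18175) and 9 to Lasp1 (16796). The genes were selected by family membership with their differences between the coatings already known from these same arrays, above all that of Nebl. The fibronectin minus collagen differences of the members are therefore given as a description, without a test.

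The cells were myoblasts, the dividing precursors of skeletal muscle, from the hindlimb of male C57BL/6JRj mice 9 to 15 weeks old. The medium, Ham's F-10, held 20% serum and 2.5 ng/ml basic fibroblast growth factor in every sample, and the groups differed in the dish coating, collagen I in 3 samples and fibronectin in 3 samples, with growth for 72 hours. No sample was uncoated, and nothing in the labels ties a sample to its own culture or animal, so p-values here rest on a spread between samples that may be technical alone. The comparison asked how the coating changed gene expression.

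Nebulin, the product of Neb, is a giant protein of skeletal muscle that runs along the actin thin filament of the sarcomere and helps to set and stabilise its length. Nebl encodes nebulette, a shorter relative of the heart muscle Z-disc, and, from a different start site, a LIM-nebulette protein (also called Lasp2) that resembles Lasp1 and is found at focal adhesions. Nrap encodes an anchoring protein that serves as a scaffold while new myofibrils form, and Lasp1 encodes a LIM and SH3 domain protein of focal adhesions and the cell edge in many cell types. Neb and Nrap thus belong mainly to the contractile apparatus, Lasp1 to adhesions, and Nebl to either, depending on its transcript.

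The family did not move together. Nebl had higher signals on fibronectin (2.72-fold and 2.71-fold by its bright probe sets), Neb had lower signals (1.55-fold), Lasp1 differed little on any of its 9 probe sets, and Nrap lay below the brightness filter described next. In such bulk samples fewer cells of a type and less RNA per cell cannot be told apart. A probe set was tested only if its mean over the 6 samples reached a log2 signal of 2.32, the median over all probe sets other than controls. Of the 14 member probe sets 12 reached it, and 3 of these were past an adjusted p of 0.05 in the limma fit across the array, 2 of them higher and 1 lower on fibronectin. Over all 22518 probe sets tested, 16.2% were past that threshold and higher and 15.8% were past it and lower. Because the members were chosen with this contrast known, nothing is read from their count against these shares.

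Nebl has 4 start sites in the RefSeq promoter table (GRCm38.p6), and since its transcripts encode different proteins, the 250 bases before each start are shown from the most upstream to the most downstream. They run 5′ to 3′ on the minus strand of chromosome 2, and capitals mark an E-box (CANNTG, the site type of Myod1 and Myog), an MCAT site (CATTCC, of Tead factors) or a CArG box (of Srf).
Nebl start 1, chr2:17731135-17731384: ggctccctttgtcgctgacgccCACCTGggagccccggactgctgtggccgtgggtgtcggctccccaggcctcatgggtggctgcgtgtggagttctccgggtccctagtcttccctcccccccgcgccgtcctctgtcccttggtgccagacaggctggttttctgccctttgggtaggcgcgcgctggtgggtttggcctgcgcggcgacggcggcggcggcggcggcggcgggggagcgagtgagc
Nebl start 2, chr2:17670166-17670415: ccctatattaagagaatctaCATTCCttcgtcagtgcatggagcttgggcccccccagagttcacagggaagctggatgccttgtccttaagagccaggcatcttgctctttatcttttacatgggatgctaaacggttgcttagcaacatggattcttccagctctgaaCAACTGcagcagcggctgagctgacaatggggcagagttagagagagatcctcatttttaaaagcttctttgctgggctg
Nebl start 3, chr2:17526131-17526380: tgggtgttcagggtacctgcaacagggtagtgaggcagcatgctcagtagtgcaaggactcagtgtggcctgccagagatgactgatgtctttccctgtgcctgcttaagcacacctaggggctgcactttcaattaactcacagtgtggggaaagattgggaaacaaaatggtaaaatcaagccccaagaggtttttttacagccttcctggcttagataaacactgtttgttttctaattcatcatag
Nebl start 4, chr2:17462857-17463106: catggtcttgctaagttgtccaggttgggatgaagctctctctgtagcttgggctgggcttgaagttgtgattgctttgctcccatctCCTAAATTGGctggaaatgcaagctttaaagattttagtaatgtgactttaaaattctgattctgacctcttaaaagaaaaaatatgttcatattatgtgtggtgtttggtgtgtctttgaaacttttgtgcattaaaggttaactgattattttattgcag

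The Nebl windows differed in composition. The window of start 1 was GC-rich, with 72.4% G and C and 25 CpG dinucleotides, and 93.6% of all 32851 windows of this length had a lower GC content. The windows of starts 2, 3 and 4 had 48.4%, 46.4% and 36.8% G and C with 3, 0 and 0 CpG dinucleotides. The Lasp1 window (chr11:97799315-97799564, plus strand) was GC-rich as well, at 70.4% with 24 CpG dinucleotides, and the Nrap window (chr19:56390039-56390288, minus strand) had 50% with 7. No window was used for Neb.

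Motifs were searched on both strands of these windows. An E-box lay 228 bases before start 1 and 80 before start 2 of Nebl. The Nrap window held 3 and the Lasp1 window 1 (CACGTG), and 66.2% of all windows held at least 1. Which factors bind any of these matches was not tested. An MCAT match lay 230 bases before Nebl start 2, as in 12.6% of all windows. A CArG box lay 162 bases before Nebl start 4 (1.47% of all windows held at least 1). No window of Nebl, Nrap or Lasp1 held the AP-1 letters TGANTCA (6.75% of all windows), the letters TATAAA (12.4%) or a MEF2 site (2.92%). Each match describes letters only, and the array annotation does not say which Nebl start or transcript a probe set reads. The starts are annotated ones. Whether transcription begins at each was not tested, so a window may not be a promoter.

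Neb was read by a single probe set (1435355_at). Its log2 signals were 6.23, 6.43 and 6.43 on collagen and 5.64, 5.69 and 5.86 on fibronectin. The lowest collagen sample lay 0.37 above the highest fibronectin sample, so the groups did not overlap. The means were 6.36 ± 0.11 and 5.73 ± 0.11 (SD, n = 3), a log2 difference of -0.63 (SE 0.08, 95% interval -0.82 to -0.45). In rank this was 544th from the lowest of the 22518 differences.

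Nebl had 2 bright probe sets. The log2 signals of 1439897_at were 5.41, 5.38 and 5.31 on collagen and 6.72, 6.87 and 6.84 on fibronectin. Those of 1438452_at were 5.12, 5.26 and 5.15 on collagen and 6.41, 6.68 and 6.74 on fibronectin. Both sets separated the coatings with a wide margin, the lowest fibronectin sample lying 1.31 and 1.15 above the highest collagen sample. The first set had means of 5.37 ± 0.05 and 6.81 ± 0.08 and a log2 difference of 1.44 (SE 0.06, 95% interval 1.31 to 1.58). The second had means of 5.17 ± 0.08 and 6.61 ± 0.17, and its difference was also 1.44 (SE 0.09, 95% interval 1.23 to 1.65). They ranked 12th and 13th from the highest over the array.

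The differences of these Nebl probe sets lay 0.004 apart on the log2 scale. The sets share the same RNA samples and are not replicates of each other, so the SE of either difference is no measure for this gap. Over the 5100 genes with 2 or more tested probe sets, the median gap between the 2 brightest was 0.09. It was 0.19 for the 62 genes whose brightest set changed at least 2-fold. The third Nebl probe set, 1451846_at, lay near the floor of the array. Its log2 signals were 0.59, 0.59 and 0.66 on collagen and 0.67, 0.80 and 0.70 on fibronectin, far under the brightness filter. Its groups were apart by only 0.01, and its log2 difference was 0.11 (95% interval -0.04 to 0.26). The sets above the filter and the set below it therefore gave different readings of the same gene, and which transcripts each detects is not given in the sources used here.

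**Figure D1:**
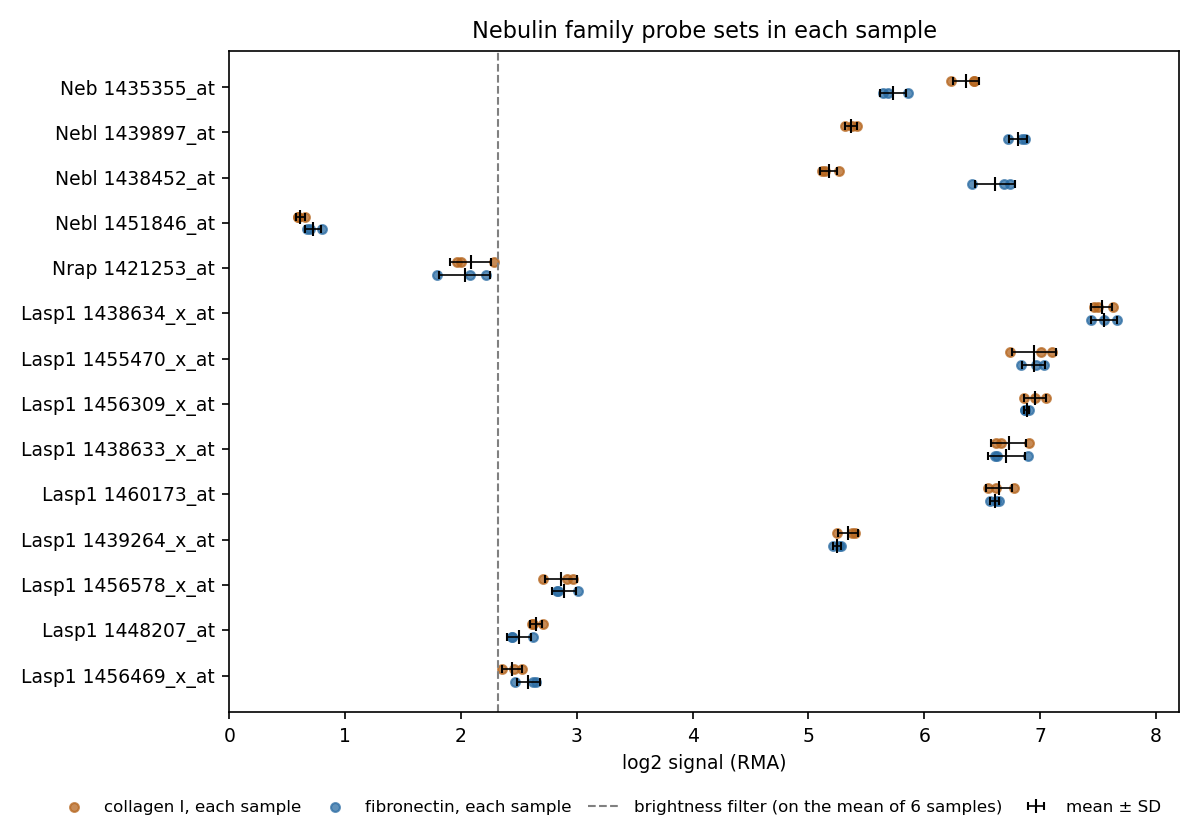
Log2 signal (RMA) of each of the 14 nebulin family probe sets on the horizontal axis, with collagen I samples in brown, fibronectin samples in blue, black bars for mean ± SD (n = 3) and a dashed line at the brightness filter of 2.32. The coatings stand apart for Neb and for the 2 bright Nebl sets, in opposite directions, and lie on top of each other for Lasp1, while Nrap and Nebl 1451846_at sit left of the line.

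Nrap, the scaffold of early myofibrils, had log2 signals of 2.29, 1.97 and 2.00 on collagen and 2.22, 1.79 and 2.08 on fibronectin by its single probe set (1421253_at). The groups overlapped, and every sample lay under the brightness filter. The log2 difference was -0.05 with a 95% interval from -0.36 to 0.25.

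Lasp1 was read by 9 probe sets, all above the filter and 0 past the threshold. The collagen and fibronectin samples overlapped on all 9. The share of all probe sets whose groups overlap or stand apart was not counted, so nothing is read from overlap or separation alone. On the brightest set, 1438634_x_at, the log2 signals were 7.47, 7.63 and 7.50 on collagen and 7.55, 7.44 and 7.66 on fibronectin. Its log2 difference was 0.02 (SE 0.07), with a 95% interval of -0.15 to 0.19, that is a fibronectin to collagen ratio between 0.90 and 1.14. On 1460173_at the signals were 6.55, 6.62 and 6.77 on collagen and 6.57, 6.64 and 6.62 on fibronectin, with a log2 difference of -0.04 (95% interval -0.19 to 0.12).

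The brighter Lasp1 probe sets, including those just given, bounded the difference in a similar way. The 6 sets with means from 5.30 to 7.54 had log2 differences between -0.09 and 0.02, and their 95% intervals together spanned -0.26 to 0.23. The remaining 3 sets, with means of 2.51 to 2.88 just above the filter, differed among themselves, from -0.14 for 1448207_at to 0.14 for 1456469_x_at. Over all 9 sets 6 differences were negative and 3 positive, with a median of -0.02. Of the 9, 7 carry the suffix x_at, which marks probe sets whose probes can also bind other transcripts. The sets share the same RNA samples and are not replicates of each other.

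**Figure D2:**
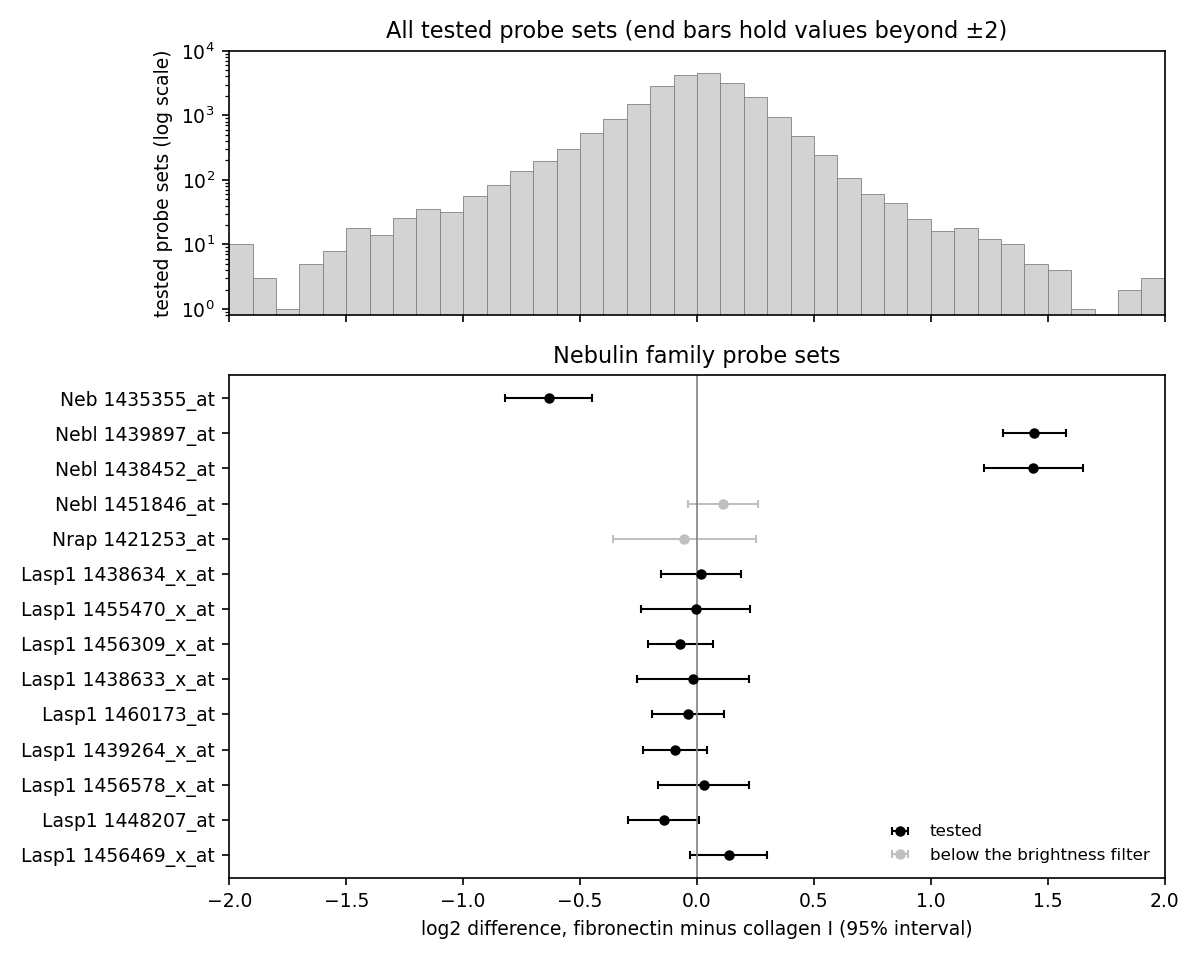
The upper histogram shows the log2 difference, fibronectin minus collagen I, of all 22518 tested probe sets (counts on a log scale), and the lower panel shows each member probe set with its 95% interval from the limma fit. Both bright Nebl sets stand at 1.44, Neb at -0.63, and the intervals of all 9 Lasp1 sets include 0.

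Nebulin family proteins work beside other parts of the sarcomere and of adhesions, and these partners were counted from lists, with each gene represented by its brightest probe set. Of 10950 genes tested in this way 17.2% were past the threshold and higher on fibronectin, 18.4% were past it and lower, and the median log2 difference was 0.004. These are the shares and the median against which each list is set, and no list was tested as a set.

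Thin filament genes, which encode the actin, tropomyosin and troponin that nebulin binds and the proteins that cap the filament or stabilise nebulin, were mostly lower or not different. Of 29 genes 24 were bright enough to test, 12 fell, 2 rose and 10 did not pass, with a median log2 difference of -0.22. Falls were measured for the slow troponin Tnni1 (log2 difference -1.56, SE 0.08, adjusted p = 5.47e-05), the troponin Tnnt2 (-0.80, adjusted p = 0.000118), the skeletal actin Acta1 (-1.53, adjusted p = 0.000266) and Klhl41, a kelch protein that binds nebulin (-0.56, adjusted p = 0.000636). The smooth muscle actin Acta2 (0.21, adjusted p = 0.0406) and the non-muscle tropomyosin Tpm4 (0.27, adjusted p = 0.00511) were the ones that rose. They were named after their values were seen. Without a filter, with a replicate block or with averaged probe sets, only 1 gene of this list rose. Among those that did not pass were Tpm3 (-0.03), the cofilin Cfl2 (0.06) and the capping protein subunit Capza2 (-0.08). For 2 of the 12 that fell, Klhl41 and Klhl40, the fibronectin mean lay below the filter, so they were tested through their collagen signal. With a filter at the 75th percentile the median was -0.10.

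Z-disc and intermediate filament genes, which encode the structures where nebulin and nebulette are anchored, moved both ways. Of 28 genes 26 were measured and 20 tested, of which 11 fell, 4 rose and 5 did not pass, with a median log2 difference of -0.34. Genes that fell included Synpo2l, an actin-binding Z-disc protein (-0.85, adjusted p = 7e-05), the muscle alpha-actinin Actn2 (-0.70, adjusted p = 0.000352), the Z-disc adaptor Pdlim3 (-0.72, adjusted p = 0.000652) and Ttn, which encodes the giant protein titin (-0.75, adjusted p = 0.00124). The 4 higher genes, singled out after seeing their values, were the filamin Flnc (0.34), Synpo2 (0.43), Ankrd1 (0.27) and Nexn, or nexilin (0.26). Bag3 (-0.14), Pdlim7 (0.11) and Myoz3 (0.12) did not pass. For 2 of the 11 that fell, Pdlim3 and Csrp3, the fibronectin mean lay below the filter. With a filter at the 75th percentile, which leaves only bright genes, 4 rose and 4 fell and the median turned to 0.11.

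Thick filament and myosin genes, which encode the motor side of the sarcomere, were mostly lower among those bright enough to test. Of 20 genes 11 were tested, 10 fell, 0 rose and 1, Myh1, did not pass (-0.53, adjusted p = 0.0507), with a median of -1.13 over the 11. The M-band protein Myom2 had a log2 difference of -1.51 (adjusted p = 0.000246), the slow myosin Myh7 of -1.37 (adjusted p = 0.000257), the embryonic light chain Myl4 of -1.38 (adjusted p = 0.000277) and the embryonic myosin Myh3 of -1.15 (adjusted p = 0.000996). The fibronectin mean of 1 that fell, Myom1, lay below the filter. The other 9 genes lay below it over all samples and were not tested, and with no filter 13 of the 20 fell, with a median of -0.65. Neb, at -0.63, thus differed in the same direction as the genes that fell, and Nebl did not.

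Focal adhesion and stress fibre genes, the setting of Lasp1 and LIM-nebulette, moved both ways. Most did not pass, as over all genes tested (17.2% higher and 18.4% lower). Of 24 genes 23 were tested, 6 rose, 3 fell and 14 did not pass, with a median log2 difference of 0.02. Zyx, or zyxin, a LIM protein to which Lasp1 binds, rose by 0.59 (SE 0.05, adjusted p = 0.000254), Filip1l by 0.55 (adjusted p = 0.000379) and the actin-binding Ablim1 by 0.67 (adjusted p = 0.000723), while talin, Tln1, fell (-0.47, adjusted p = 0.000882). Vinculin (Vcl, 0.02), the alpha-actinin Actn4 (0.003) and paxillin (Pxn, -0.18) did not pass. With an intensity trend and robust variance 10 rose and 5 fell.

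Transcription factors that act on muscle genes also went both ways. Of 17 genes 16 were measured and 14 tested, 2 rose, 6 fell and 6 did not pass, with a median of -0.15. Mef2c (log2 difference -0.92, adjusted p = 6.35e-05) and Mef2a (-0.62, adjusted p = 0.000223) fell, and the genes that rose were Tead1 (0.43, adjusted p = 0.00117) and Srf (0.34, adjusted p = 0.00163). Myod1 (-0.06), Myf5 (0.08) and the Srf cofactor Mrtfa (-0.15) did not pass. Myog, named with Myod1 for the E-box, fell (-0.83, adjusted p = 0.00236) and was singled out after its value was seen. Tead4, a Tead factor like Tead1, fell (-0.51, adjusted p = 0.00201) and was singled out in the same way.

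**Figure D3:**
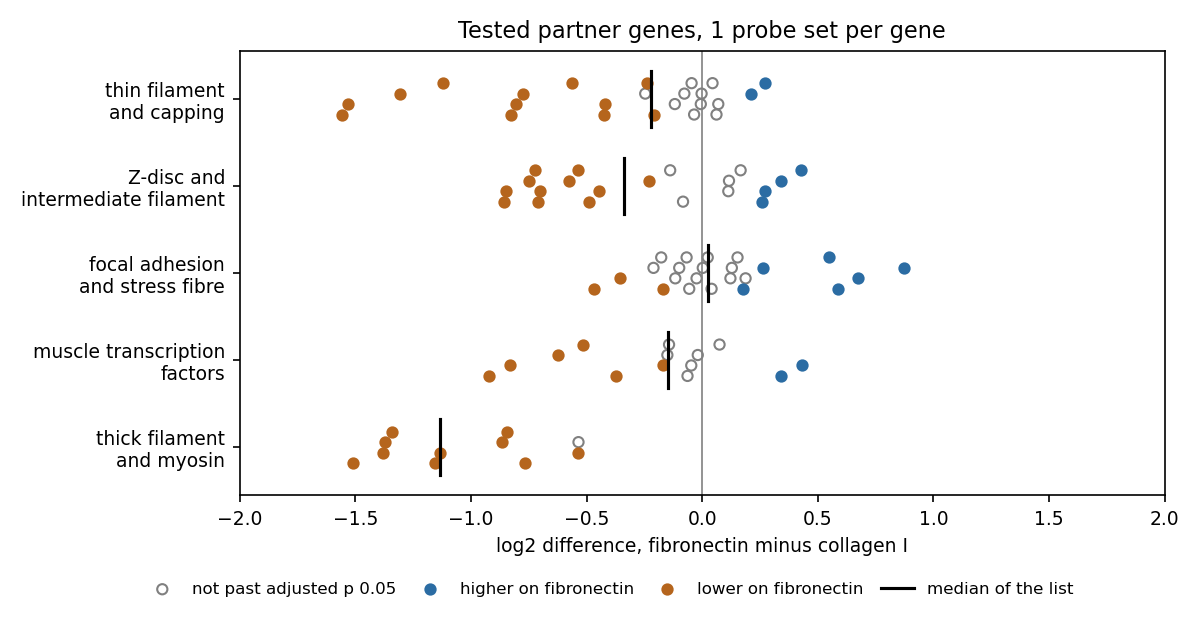
Log2 difference, fibronectin minus collagen I, of each tested gene in the 5 partner lists, filled blue where past the threshold and higher, filled brown where past it and lower, open where not past it, with a black bar at each list's median. The 11 tested thick filament genes all lie left of 0, with a median of -1.13, and the focal adhesion list is centred near 0, with a median of 0.02.

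The genes with profiles most like each member were found as the smallest root mean square difference between log2 signals, each centred on its own mean over the 6 samples, among 10622 other named genes. For Nebl (1439897_at) they were Sostdc1, a secreted BMP and Wnt antagonist (root mean square difference 0.08), the fibrillar collagen Col5a1 (0.10) and the calcium-binding S100a3 (0.12), against a median of 0.72 over all genes compared. Sostdc1 went from 3.05 ± 0.07 on collagen to 4.56 ± 0.07 on fibronectin, and Col5a1 from 5.89 ± 0.05 to 7.24 ± 0.06. For Neb they were the non-coding RNA gene Firre (0.04), the semaphorin receptor Plxna2 (0.06) and Nlrc3 (0.06), against a median of 0.34. For Lasp1 (1438634_x_at) they were the deacetylase Sirt1, Tmco4 and Leng1, all at 0.03 and against a median of 0.13, which shows mainly that all of these are flat. None of the genes nearest to Neb or Nebl was in a partner list. With 6 samples that fall into 2 groups, likeness rests mostly on the size of the difference between coatings.

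**Figure D4:**
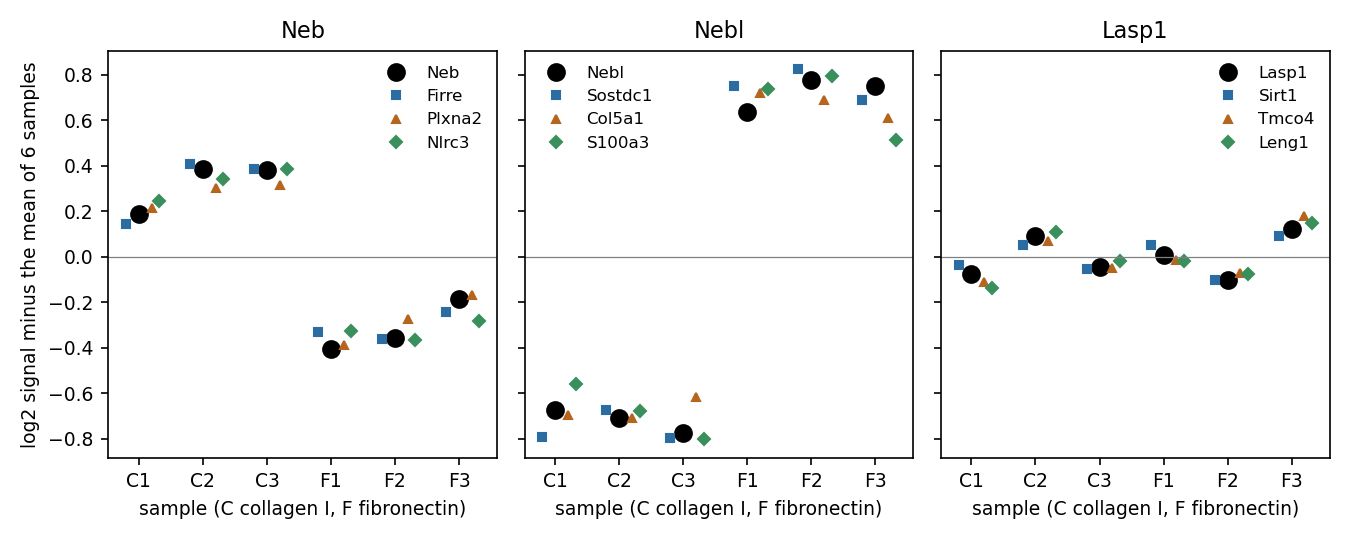
Log2 signal of Neb, Nebl and Lasp1 (black circles, brightest probe set) and of the 3 genes nearest to each, minus each gene's mean over the 6 samples, for collagen I samples C1 to C3 and fibronectin samples F1 to F3. Neb runs from 0.38 down to -0.41, Nebl from -0.78 up to 0.78, and Lasp1 stays between -0.10 and 0.12.

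The label of the cells was checked against markers. All 8 myoblast markers were above the filter, including Pax7 at 8.89 and Myf5 at 8.41 on collagen, and at 8.77 and 8.49 on fibronectin. Among them Chrna1 (-0.31, adjusted p = 0.00394) and Des (-0.23, adjusted p = 0.0301) fell, Cdh15 (0.24, adjusted p = 0.0181) rose and 5 did not pass. Their summed signal on a linear scale was 4836 to 5050 on collagen and 4279 to 4481 on fibronectin. The largest part of it came from Chrna1, the brightest, at 11.13 on collagen and 10.81 on fibronectin. In heart muscle, a main site of nebulette, Nkx2-5, Tbx20, Nppa, Myh6 and Ryr2 are markers, and 0 of these 5 reached the filter, as was the case for 0 of 5 endothelial and 0 of 2 measured adipocyte markers. The fibroblast markers had 1 of 6 above it, Col3a1, which rose by 0.21, while Pdgfra, Dcn, Lum, Twist2 and Tcf21 were below it. Of 5 macrophage and leukocyte markers Csf1r, Cd68 and Cd14 were above it, of which Cd68 (-1.28) and Cd14 (-0.46) fell, and Ptprc and Adgre1 were below it. The summed signal of the 5 on a linear scale was 50.9 to 58.2 on collagen and 34.0 to 39.4 on fibronectin. Of 4 smooth muscle and pericyte markers Rgs5, which fell by 1.24, carried most of a summed signal of 549 to 598 on collagen and 216 to 305 on fibronectin. Cspg4 (-0.35) and Notch3 (0.12) did not pass, and Myh11 was below the filter. The Schwann cell marker Sox10, the 1 of 3 used here, was above the filter at 3.15 and 3.19, and did not pass. The part of these genes in the differences of Neb and Nebl was not tested.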

How the data were processed

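Total RNA of 6 samples was measured on an Affymetrix mouse array. The log2 probe set signals were used as deposited, and per the submitters' processing notes the authors' tools were Affymetrix Expression Console and RMA, a method that subtracts background and sets all arrays to the same quantiles, so a change shared by most genes is removed. Neither versions nor scan dates are given, and no batch was tested. Sample medians lay between 2.29 and 2.38. Array signals hold no molecule counts, so precision rests on the number of samples. Of 45101 probe sets 64 were controls, 34945 had 1 gene in the platform annotation, 932 several and 9160 no entry. Symbols were updated through RefSeq (GRCm38.p6), where 18032 of 18194 gene identifiers were found.

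Coatings were compared with limma 3.58.1 in R 4.3.3 (lmFit, eBayes, two-sided, no covariate, each probe set alone, Benjamini-Hochberg over 22518 probe sets, threshold 0.05, 4 residual and 3.58 prior degrees of freedom). The procedure was tested on simulated data. An exact permutation test of 3 against 3 cannot give p below 0.10 and was not run. Members and lists were chosen with earlier results of these data known. Named were all members, up to 4 genes per list by smallest p among those past the threshold, up to 3 that did not pass, and the 3 nearest profiles, without predicted genes. Alternatives were other filters, quantile normalisation again, centring, an intensity trend, array weights, a replicate block, leaving out each sample, averaged probe sets and a threshold of 0.01. Figures used Python 3.11.15 and matplotlib 3.10.9.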

Additional observations from a re-analysis of the deposited data

How the results depend on the processing

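The 14 member probe sets gave 157 differences under alternative settings, 0 of which reversed a member past the threshold and 156 of which moved by less than the SD between samples. Part of this was fixed in advance. Another filter, an intensity trend with robust variance or a replicate block leaves each difference of means as it was. Centring shifts every difference by the same amount. The difference that moved further was Nebl averaged over its 3 probe sets, 1 of them dim, at a log2 difference of 0.997. Without each sample in turn Neb lay between -0.70 and -0.59, Nebl between 1.41 and 1.49 (1439897_at) and between 1.37 and 1.54 (1438452_at), and the brightest Lasp1 set between -0.04 and 0.07. In every setting run on probe sets the count of members past the threshold was 3, and averaged by gene it was 2 of 3 tested.

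Over the array 7198 probe sets were past the threshold, 4583 without a filter, 3648 at a threshold of 0.01, and 5144 to 6506 without each sample in turn. Centring samples on their medians, which shifts every difference by 0.06, gave 5107 higher and 2584 lower in place of 3650 and 3548. With the 75th percentile filter, which tests fewer genes, 8 Z-disc genes and 2 thick filament genes passed. Those 2, Myl1 and Mylpf, were the only thick filament genes bright enough to be tested there. Under an intensity trend with robust variance 15 focal adhesion genes passed (the cause was not tested). The replicate block gave 6734 probe sets and changed no member's call. Same-numbered samples correlated at 0.12, -0.004 and 0.08 in their deviations, so the numbers were not taken as pairs, and not every sample correlated best with its own number. Nrap and Nebl 1451846_at lay below the filter and were tested only in the setting without it.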
